A study of Danio rerio with 24 samples.

Results

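Melanophores were compared with late neural crest cells (NCCs) by whole-genome bisulfite sequencing (WGBS), in which bisulfite turns unmethylated cytosines into uracil and leaves methylated ones. The comparison covered 1559804 tiles of 500 bp, 60.1% of the 2597411 tiles with a covered CpG in any library. A tile was taken when it held 5 or more CpGs with 5 or more reads in both libraries, and its level was the mean level of those CpGs. Melanophores came from larvae of the mlphaj120 strain at 4 to 5 days post-fertilization (dpf), a melanophilin mutant whose melanosomes disperse less, and were isolated by Percoll density centrifugation and sorting. Late NCCs were GFP-positive cells sorted from Tg(crestinA:EGFP) embryos at 24 h post-fertilization (hpf), in which a crestin element drives EGFP. Early NCCs of the same line at 15 somites and iridophores of the same mlphaj120 larvae are given beside them where they bear on a result. Strain, stage and cell type change together from late NCCs to melanophores, so their parts in any difference below cannot be told apart. Each cell type is 1 library in which the authors had combined 2 biological replicates. No difference therefore has a spread between replicates, and a test on reads compares the libraries, not the conditions. Gene models of danRer10, the build of the files, were not used here. Regions are thus named by position, and the labelled cell types were not checked against the promoters of their marker genes.

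In vertebrate genomes most CpGs are methylated, and a maintenance methyltransferase copies the mark to the new strand after replication. TET enzymes oxidise it, which is a step towards its removal, and it can also be diluted when cells divide without maintenance. Promoters rich in CpGs are usually unmethylated, while enhancers away from promoters often lose methylation in the cell types that use them. Melanophores, the black pigment cells of fish, and iridophores, the reflective ones, both descend from the neural crest.

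Methylation was lower in melanophores than in late NCCs in most of the tiles tested, and losses were 4.22 times as large as gains. Over the tiles the mean level was 81.6% in melanophores and 84.7% in late NCCs, a mean change of -3.15 percentage points. The median tile changed by -1.46 points, with quartiles at -4.47 and 0.71 points. Levels were lower in melanophores in 67.1% of tiles and higher in 32.8%. When losses and gains were summed apart, the gross loss was 4.12 points per tile and the gross gain 0.977 points per tile. The gross sums include counting error, since the counting standard error of a single tile difference had a median of 2.60 points. Among tiles with 800 or more reads in both libraries the gross loss was 2.96 and the gross gain 0.489 points per tile, and among tiles under 100 reads these were 3.93 and 2.02. The deeper tiles also held more CpGs, with a median of 21 against 6, so depth and CpG number are not separated in these sums. Tiles had a median of 348 reads in melanophores and 297 in late NCCs, and covered CpGs a mean of 35.2 and 30.3 reads in the same order of libraries.

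The other steps of the lineage gave a scale for these sums, although both share the late NCC library with this comparison. From late NCCs to iridophores the gross loss was 4.55 and the gross gain 0.908 points per tile. From early to late NCCs, within 1 strain, the gross loss was 1.92 and the gross gain 0.936 points per tile. Gross gain was therefore of like size in the 3 comparisons, while gross loss was larger in those that end in a pigment cell. Tiles that were nearly unmethylated in early NCCs, under 5%, kept such a level: the median of these 41228 tiles was 0.789% in melanophores and 0.697% in late NCCs.

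The loss was a mixture of many small falls and few large ones. Tiles that fell by under 5 points held 22.9% of the gross loss, those that fell by 5 to 10 points 20.6% and those that fell by 10 to 20 points 19.4%. A fall of 30 points or more, the size used below to call a tile fallen, was found in 37564 tiles, 2.41% of those tested. These tiles held 25.8% of the gross loss. Falls of 50 points or more were found in 10335 tiles and held 9.49% of it. The 10% of tiles with the largest falls held 56.2% of the gross loss, and 50% of it lay in 7.72% of tiles. From early to late NCCs, falls of under 5 points held 52.0% of the gross loss and 1133 tiles (0.0816%) fell by 30 points or more. Tiles just inside the threshold, with falls of 30 to 31 points, numbered 1982 and had medians of 59.5% in melanophores and 90.1% in late NCCs. The 2179 tiles just outside, with falls of 29 to 30 points, had medians of 61.1% and 90.5% in these libraries, so the threshold cuts a continuous range.

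**Figure D1:**
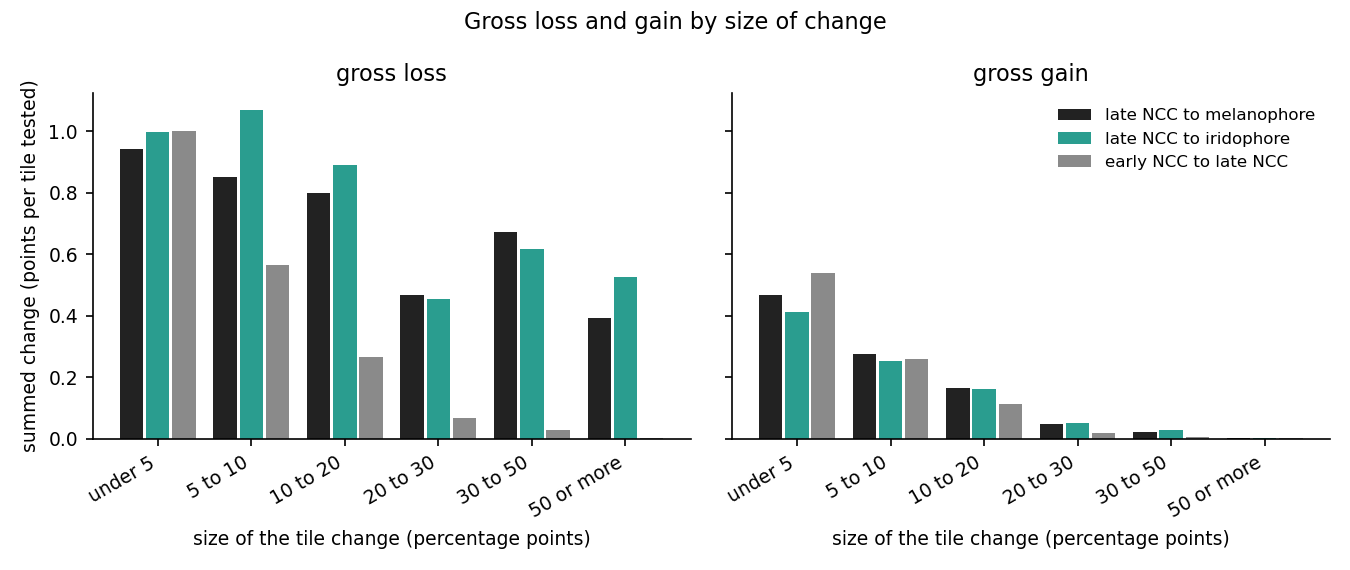
Summed change of tiles (points per tile tested) by size of the tile change, for losses (left) and gains (right), in late NCC to melanophore, late NCC to iridophore and early NCC to late NCC. Losses of 30 to 50 points add 0.672 points per tile in melanophores and 0.0281 points from early to late NCCs, while gains of that size stay under 0.03 points in each comparison.

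Gains of the same size were rare. A gain of 30 points or more was found in 945 tiles, 0.0606% of those tested, so that 39.8 tiles fell for each that gained. Starting levels set part of this ratio, since a tile at 80% or more in late NCCs cannot gain 30 points. At 20 to 40% in late NCCs 369 tiles gained and 57 fell. At 40 to 60% 306 gained and 856 fell, and at 60 to 80% 40 gained and 6227 fell. Gains of under 5 points held 47.8% of the gross gain, gains of 30 to 50 points 2.09% and gains of 50 points or more 0.224%. Shallow tiles, which also held fewer CpGs, had the highest share of gains: 0.221% of tiles with under 100 reads gained 30 points or more, against 0.0366% of tiles with 200 to 399 reads. The share of tiles that fell was lower under 100 reads, 1.31%, than at 200 to 399 reads, 2.80%. With tiles of 200 or more reads in both libraries, a limit set after seeing the data, 399 gained and 28253 fell. By two-sided Fisher's exact tests on the summed reads with Benjamini-Hochberg adjustment over all tiles, 37522 of the fallen tiles (2.41% of tiles tested) and 933 of the gained tiles (0.0598%) also had an adjusted p under 0.05. The calls were made from the same reads, so this outcome was close to given and lends them no support. Without the size threshold, 264141 tiles (16.9%) were lower and 37697 tiles (2.42%) higher in melanophores at that adjusted p. CpGs on a shared read are not independent, which can make these p-values too small.

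Few of the fallen tiles became unmethylated. Over the 34091 fallen tiles that also had 5 CpGs with 5 reads in the other libraries, the median level was 44.7% in melanophores, with quartiles of 33.2% and 54.3%, and 90.2% in late NCCs. A level under 20% in melanophores was found in 2530 of them (7.42%), a level of 20 to 50% in 56.4% and a level of 50 to 80% in 36.2%. The same tiles had a median of 56.7% in iridophores and 94.97% in early NCCs. In early NCCs 93.3% of them had a level of 80% or more, against 83.5% of all tiles with data in the 4 libraries. No early NCC read chose the tiles, but a large fall needs a late NCC level high enough to fall from, and the levels of both NCC libraries go together, so the choice sets part of this difference. Iridophore levels spread more widely than those of melanophores, with quartiles of 34.4% and 76.0%. The median change of these tiles from the shared late NCC library was -42.7 points in melanophores, which chose them, and -30.4 points in iridophores. Since a low melanophore level chose the tiles, the lower median in melanophores than in iridophores is a description.

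Within a fallen tile the CpGs moved unevenly. In the median fallen tile, 70% of the CpGs fell by 30 points or more, and in 4504 tiles (12.0%) each CpG did. In 2945 tiles (7.84%) under 50% of the CpGs did. The standard deviation of the change among the CpGs of a tile had a median of 21.7 points. Single CpGs that fell alone were few: of 12724 CpGs that fell by 80 points or more and had a neighbour within 250 bp on each side, 149 (1.17%) had both neighbours changed by under 10 points. Among CpGs that fell by 30 to 50 points this was 17.2%, and over all CpGs with such neighbours 71.6% had both neighbours changed by under 10 points. Large gains were more often solitary than large falls, though less often than all CpGs with such neighbours. Among CpGs that gained 30 to 50 points 50.5% had both neighbours changed by under 10 points. Of 135 CpGs that gained 80 points or more and had a neighbour within 250 bp on each side, 72 (53.3%) did. These 72 had medians of 89.3% in melanophores, 80.6% in iridophores, 4.45% in late NCCs and 43.9% in early NCCs. The CpG counts are over sites with 10 or more reads in all 4 libraries. The NCC and pigment cell libraries come from different strains, and sequence differences at single CpGs were not checked.

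The mean change had a like order over starting levels by either NCC library, while the share of large falls depended on the library that set the starting level. The late NCC level enters the change itself, so a tile read too high there also seems to fall. The early NCC level does not. By early NCC level, the mean change was 1.0002 points in tiles under 20%, 3.01 points at 20 to 40%, 0.240 points at 40 to 60% and then -2.01, -2.84, -3.51 and -4.48 points in the classes 60 to 80%, 80 to 90%, 90 to 95% and 95% or more. The late NCC level gave the same order of mean changes from 20 to 40% upward. Starting levels under 40% thus went with net gain and those from 60% upward with growing net loss, whichever library set the class.

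For falls of 30 points or more the order of classes from 60% upward reversed between the early and the late NCC level. By early NCC level the share of tiles that fell grew with the level and was 1.38% at 60 to 80%, 1.89% at 80 to 90%, 2.54% at 90 to 95% and 3.65% at 95% or more. Over the same tiles by late NCC level it declined, with 3.33%, 2.68%, 2.57% and 2.17% in these classes. Of the fallen tiles 17.6% had already fallen by 10 points or more from early to late NCCs, against 2.32% of all tiles with data in the 4 libraries. Such tiles can stand in a lower class by late NCC level than by early NCC level. The cause of the reversed order was not tested. Tiles that had been at 95% or more in early NCCs held 41.0% of the gross loss and made up 34.2% of tiles. Their mean level was 90.1% in melanophores and 94.6% in late NCCs. A share of tiles that fall is therefore tied to the library that defines the starting level, and the early NCC classes are the ones that share no reads with the change.

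**Figure D2:**
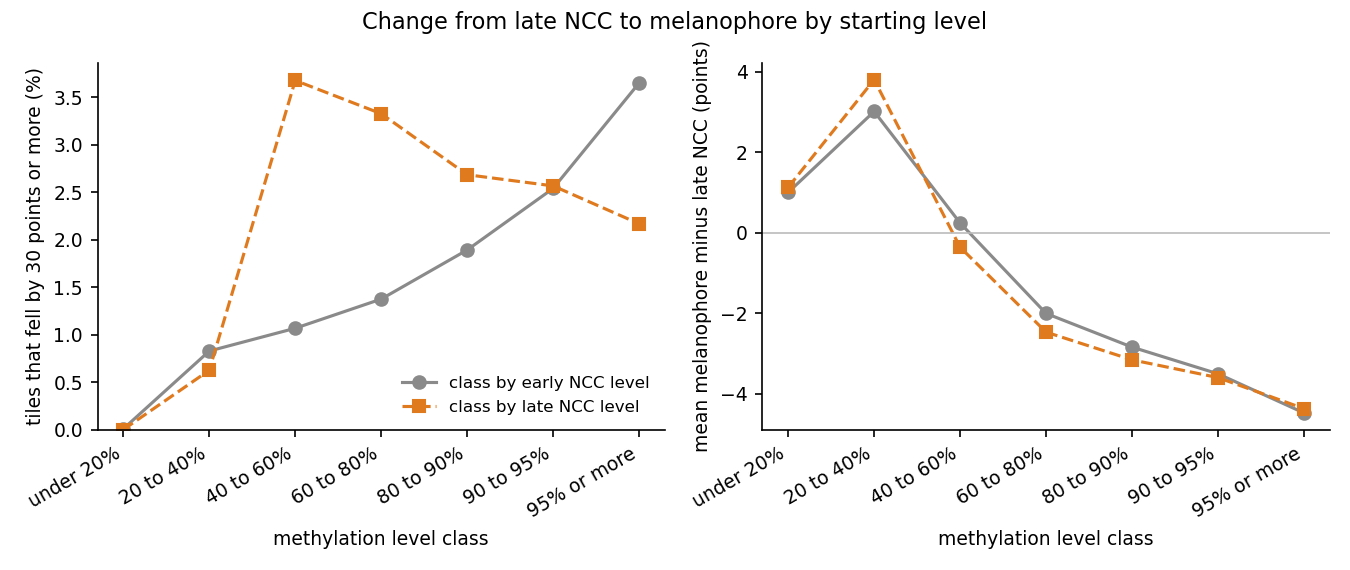
Share of tiles that fell by 30 points or more (left) and mean change in points (right) in 7 classes of methylation level, set by the early NCC library (circles) or the late NCC library (squares), over the 1358966 tiles with data in the 4 libraries. In the highest class the share that fell is 3.65% by early NCC level and 2.17% by late NCC level, while the mean changes nearly coincide.

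CpG-dense tiles fell least. Among tiles with 5 to 6 qualifying CpGs 2.76% fell by 30 points or more, and the share was 2.83% at 7 to 9 CpGs, 2.58% at 10 to 14, 1.49% at 15 to 24 and 0.245% at 25 or more. The mean change was -3.47 points in the sparsest class and -0.848 points in the densest. Dense tiles are more often unmethylated at the start, so the split was repeated in tiles with 80% or more in early NCCs. There the shares were 3.71%, 3.34%, 2.93%, 1.69% and 0.2702% from sparse to dense, and in tiles of this kind with 20 to 40 reads per CpG in the shallower library 3.65%, 3.19%, 2.44%, 1.04% and 0.0949%. Highly methylated dense tiles thus fell less often than highly methylated sparse ones at like coverage per CpG. The tiles were not alike in total depth, with medians of 165 reads and 6 CpGs in the sparsest class and 909 reads and 29 CpGs in the densest. A mean over fewer CpGs varies more and can pass the threshold more easily, and the part of this in the shares was not tested. The mean change of these classes was -4.48 and -0.998 points. Of the 51078 tiles with 25 or more CpGs and 80% or more in early NCCs, 138 fell, and their mean level was 89.9% in melanophores and 91.1% in late NCCs.

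**Figure D3:**
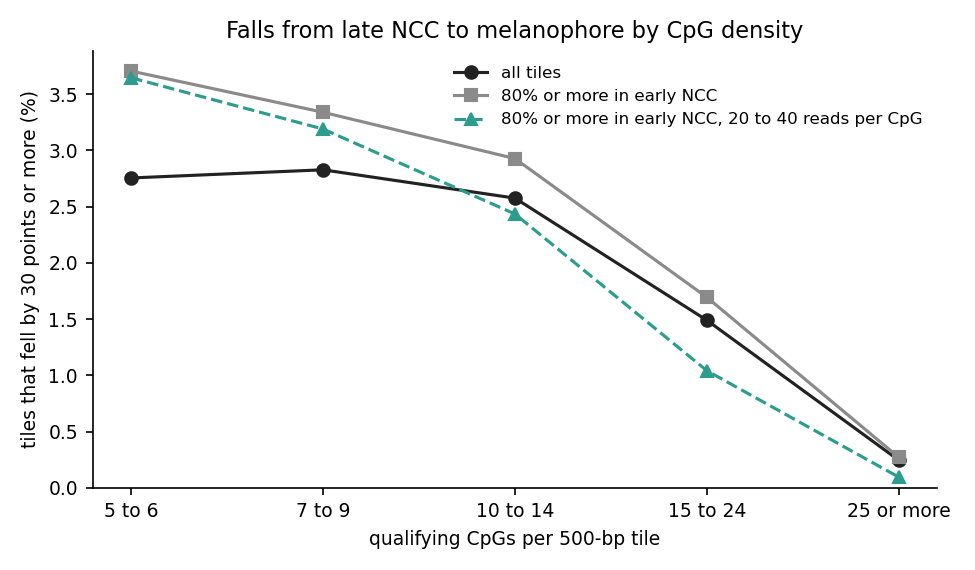
Share of tiles that fell by 30 points or more from late NCC to melanophore, by the number of qualifying CpGs in the 500-bp tile, for all tiles (circles), tiles at 80% or more in early NCC (squares) and those among them with 20 to 40 reads per CpG (triangles). Each line is lowest in the densest class, at 0.245%, 0.2702% and 0.0949%.

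In each class of early NCC level from 20% upward, the mean change was higher on the signed scale in denser tiles. At 40 to 60% its sign turned from net loss to net gain, while at 20 to 40% each density class showed net gain. At 95% or more the mean change was -4.97 points with 5 to 6 CpGs and -1.61 points with 25 or more. Among tiles at 20 to 40% in early NCCs the mean change was 0.58 points with 5 to 6 CpGs, 2.18 with 7 to 9, 3.37 with 10 to 14, 5.30 with 15 to 24 and 5.97 with 25 or more. Tiles at 40 to 60% showed the same order, with -1.05 points in the sparsest class and 4.57 points in the densest, which held 433 tiles. Dense tiles of partial methylation therefore showed net gain. At 20 to 40% with 15 to 24 CpGs 50 of 1618 tiles (3.09%) gained 30 points or more. Over all densities at that level 167 of 8216 tiles (2.03%) did. The share was 1.24% with 5 to 6 CpGs and 1.31% with 25 or more, so it did not grow steadily with density. From 60% upward each density class showed net loss.

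Large falls were mostly focal over the tiles tested. Of the fallen tiles 25.2% had a fallen tile directly beside them, against 2.85% of all tiles tested, and among fallen tiles with a tested neighbour this was 30.1%. The 37564 fallen tiles made 32563 runs of consecutive tiles. Of these runs 28095 (86.3%) were 1 tile long, 4014 were 2 tiles long and 454 were 3 tiles or longer, with the longest at 9 tiles (4500 bp). A run also ends at a tile that was not tested, and only 31490 of the fallen tiles had a tested neighbour. Some runs may therefore be longer than counted. From late NCCs to iridophores, where 2.45% of tiles fell, the values were much the same, with 26.5% of fallen tiles beside another against 2.85% of tiles tested, 85.5% of runs of 1 tile and the longest run at 9 tiles. From early to late NCCs 9.09% of fallen tiles had a fallen neighbour, against 0.0829% of tiles tested. Gained tiles were also paired more often than the background, with 19.9% beside another gained tile against 0.0675% of all tiles tested, and their runs reached 3 tiles.

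Longer runs reached lower levels. The median change was -40.7 points in runs of 1 tile, -45.3 in runs of 2, -47.5 in runs of 3 and -50.03 in runs of 4 or more. Median melanophore levels in these classes were 46.0%, 41.3%, 38.0% and 35.5%, and median late NCC levels were 90.5%, 88.6%, 88.1% and 87.1%. A run of several called tiles also needs each of them to pass the threshold, so the comparison among run lengths is a description.

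Around runs of 1 tile the fall ended within about a tile's length. At 50 bp from the middle, the mean CpG level was 40.9% in melanophores and 87.1% in late NCCs. At 550 bp it was 82.6% in melanophores and 87.3% in late NCCs, and at 2950 bp 77.4% and 83.4%. The difference was thus smaller at 550 bp than at 2950 bp. This is in part by construction, since the neighbours of a 1-tile run had not fallen by 30 points or were not tested. The profile of early NCCs peaked at the centre, with 92.3% at 50 bp against 85.1% at 2950 bp. Around runs of 3 or more tiles the early NCC level was 93.0% at the centre and 83.9% at 2950 bp. The call needs a high late NCC level in the middle and not in the flanks, so these central maxima are in part set by the choice of tiles. Late NCCs showed no maximum at the centre of these longer runs. Their level was 85.2% there, 87.0% and 88.4% at 750 bp to either side, and 81.1% at 2950 bp.

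**Figure D4:**
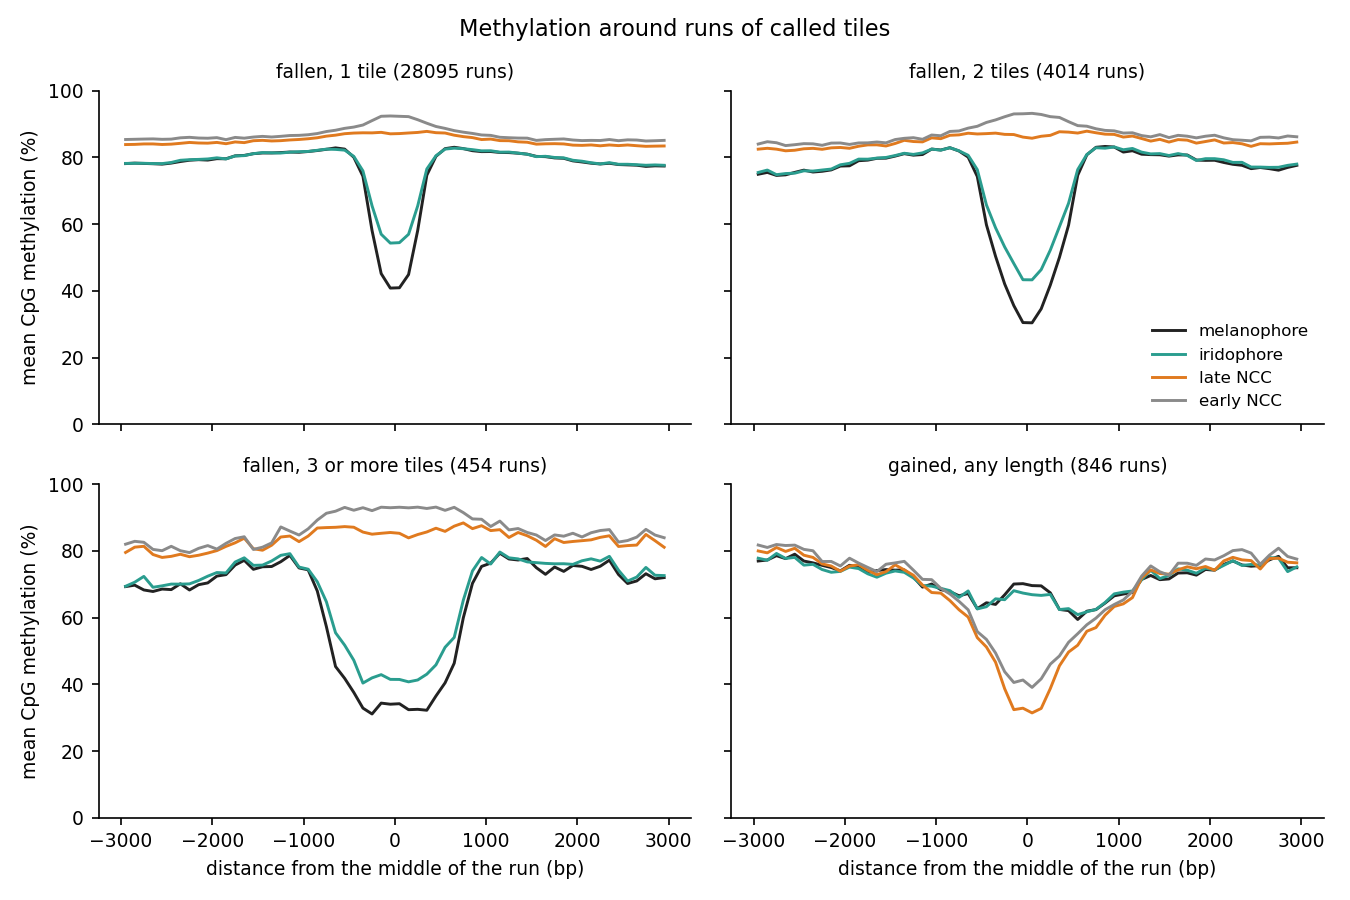
Mean CpG methylation (%) in 100-bp bins against distance (bp) from the middle of fallen runs of 1, 2 and 3 or more tiles and of gained runs, in melanophores, iridophores, late NCCs and early NCCs. At the middle of 1-tile fallen runs melanophores are at 40.9%, iridophores at 54.4%, late NCCs at 87.1% and early NCCs at 92.3%, and the gained runs, whose call needs a late NCC level low enough to gain from, sit on a local minimum of both NCC libraries.

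The tiles that had not fallen showed a shallower loss. Tiles directly beside a fallen tile, but not fallen, changed by -7.26 points on average. At 2 tiles the mean change was -2.40 points and at 3 tiles -2.23, with -2.90 at 4 to 5 tiles and -2.73 at 6 to 10. Beyond 100 tiles, at least 50 kb from any fallen tile, it was -1.71 points with a median of -1.38. These distant tiles made up 27.0% of tiles and held 17.7% of the gross loss. Across pairs of tiles the changes correlated with r = 0.313 at 0.5 kb (1067211 pairs), 0.0745 at 1 kb, 0.0597 at 10 kb and 0.0065 at 500 kb. Tiles are not independent replicates and a read can touch neighbouring tiles, so these values describe the 2 libraries.

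The share that fell varied little with distance from unmethylated regions, in classes not matched for starting level. Among tiles with 60% or more in early NCCs, 2.57% fell directly beside a tile that was under 20% in early NCCs, 2.70% at 2 tiles, 2.94% at 3 to 4 tiles and 2.60% beyond 20 tiles. The mean late NCC level was 81.7% directly beside such a tile and 89.1% beyond 20 tiles. Tiles at 20 to 60% in early NCCs were left out. Large falls were thus not more frequent at these borders over the tiles counted, but a border effect at equal starting level was not tested.

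Along chromosomes the loss was general and the large falls were uneven. The chromosome means of change ran from -3.47 points (chromosome 18) to -2.69 points (chromosome 22), with a standard deviation of 0.203 over the 25 chromosomes. In 1-Mb bins with 200 or more tiles the mean change was below 0 in 1350 of 1350 bins and the median change in 1346. The share of tiles that fell ran from 0% to 8.79% with a median of 2.19%, and the 10% of bins with the highest share held 22.6% of the fallen tiles. The highest shares were 8.79% at chr23:22000001-23000000, where 103 of 1172 tiles fell, 8.64% at chr4:8000001-9000000 and 8.46% at chr23:23000001-24000000. In the first of these bins the mean level was 77.8% in melanophores and 85.0% in late NCCs, while its median tile changed by -2.03 points. The bin with the lowest mean change, chr7:27000001-28000000, had 83.1% in melanophores and 91.0% in late NCCs. No tile fell in 6 bins, and 5 of them were on chromosome 4, from chr4:35000001-36000000 to chr4:63000001-64000000. Chromosome 4 has 77 of the 1350 bins. These 5 bins held 683 to 725 tiles each, and a bin with fewer tiles more easily holds no fallen one. Low shares were not confined to the empty bins, however. Every other bin between the first and the last of these 5 had a share under the median of 2.19%. That includes bins with more tiles than any of the 5. The part of tile number in the empty bins was not tested. Those 5 bins had mean changes from -2.35 to -1.57 points, so the shallow loss was present where large falls were not found. Gains were most frequent at chr22:6000001-7000000, where 16 of 786 tiles (2.04%) gained 30 points or more and 11 fell.

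The longest fallen runs showed how such regions look CpG by CpG. The longest was chr22:11128001-11132500, with 141 qualifying CpGs. Its level was 36.1% in melanophores, 34.4% in iridophores, 86.7% in late NCCs and 95.6% in early NCCs. In melanophores 2714 of 7630 readings (reads summed over CpGs) were methylated (35.6%, Wilson 95% interval 34.5 to 36.7%), against 5834 of 6804 in late NCCs (85.7%, 84.9 to 86.6%). Of the 141 CpGs 133 were lower in melanophores and 103 fell by 30 points or more. The fall was a row of separate troughs, with CpGs near 0% and CpGs near 100% in the same run. In the 3 kb before the run the level was 94.4% in melanophores and 97.2% in late NCCs, and in the 3 kb after it 74.8% and 82.8%.

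**Figure D5:**
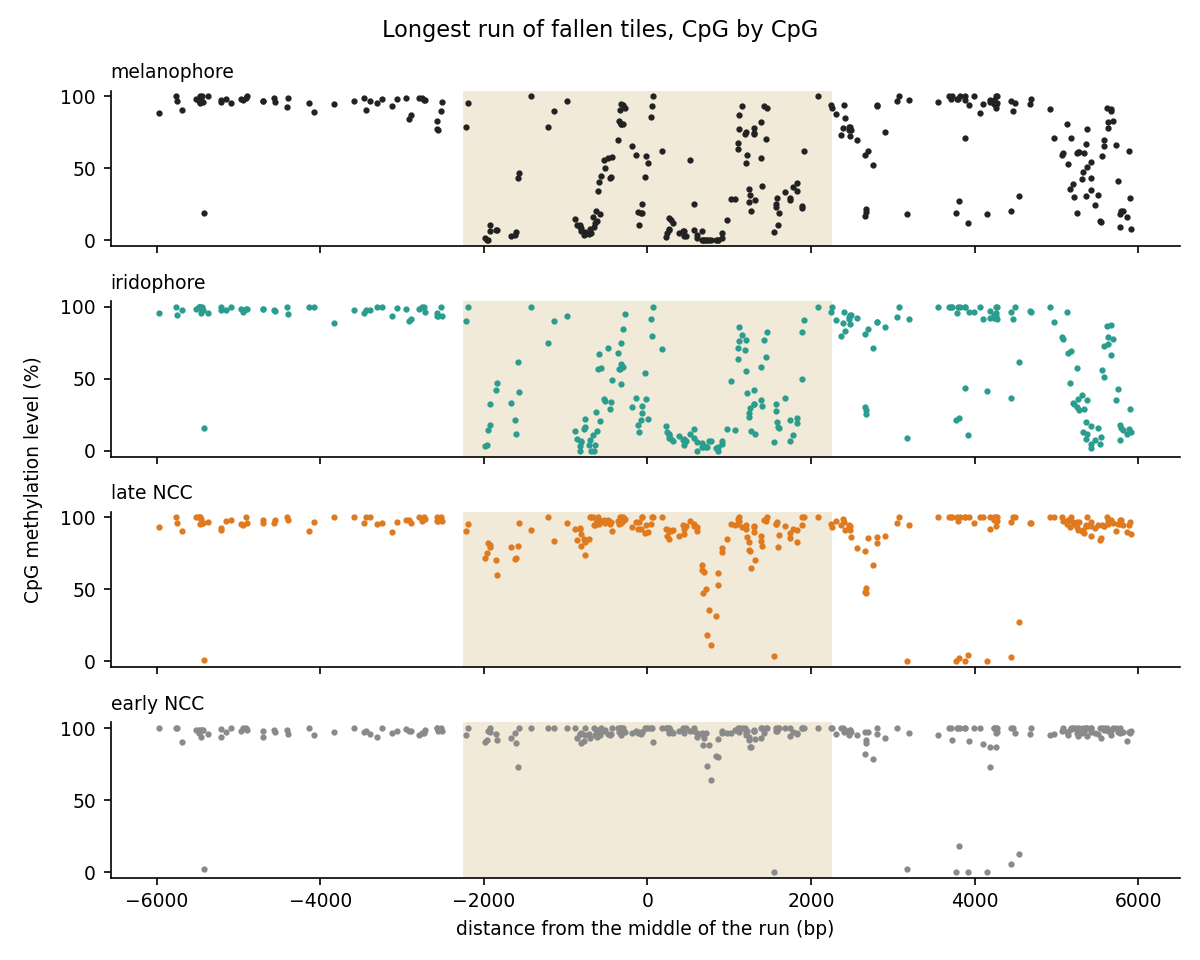
Methylation level (%) of single CpGs with 5 or more reads against distance (bp) from the middle of the longest fallen run, in melanophores, iridophores, late NCCs and early NCCs from top to bottom, with the run shaded. Mean levels in the shaded run are 36.1%, 34.4%, 86.7% and 95.6% in that order.

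Among the next 4 runs the pigment cells differed most at chr15:21509501-21512500, a run of 6 tiles. The level there was 33.2% in melanophores, 68.0% in iridophores, 93.3% in late NCCs and 96.2% in early NCCs. All 86 CpGs were lower in melanophores than in late NCCs. In 5 of the 6 tiles the reads of melanophores and iridophores also differed at an adjusted p under 0.05 (Fisher's exact test). Such tiles did not mark this run out. They were 4 of 9 in the longest run and 5 of 6 at chr13:25769501-25772500. At chr4:17061001-17064000 they were 4 of 6, and at chr10:17382001-17384500 2 of 4 with data in the 4 libraries. Low melanophore levels chose these runs, so this test is a description. The run at chr13:25769501-25772500 had 39.2% in melanophores, 57.6% in iridophores, 89.6% in late NCCs and 94.98% in early NCCs. In the run at chr4:17061001-17064000, 33.1% in melanophores stood against 24.5% in iridophores, 81.3% in late NCCs and 91.2% in early NCCs. It lies in a region of wider loss, since its 2-kb flanks were at 50.1% in melanophores and 78.3% in late NCCs. The fifth run, chr10:17382001-17384500, had 24.2% in melanophores, 30.3% in iridophores, 90.4% in late NCCs and 93.8% in early NCCs. In each of the 5 runs the largest adjusted p over the tiles between melanophores and late NCCs was at most 2.13e-13 (Fisher's exact test on reads), and no CpG gained 30 points or more. The same reads chose these runs by their falls, so these values are a description and lend the falls no support.

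The largest single-tile falls came close to full loss in both pigment cells. At chr18:16043001-16043500 the level was 2.06% in melanophores, 0.549% in iridophores, 89.7% in late NCCs and 95.8% in early NCCs, and each of its 18 CpGs fell by 30 points or more. In melanophores 18 of 1074 readings were methylated (1.68%, Wilson 95% interval 1.06 to 2.63%), against 857 of 954 in late NCCs (89.8%, 87.8 to 91.6%). Its 2-kb flanks were at 66.0% in melanophores and 82.8% in late NCCs. The other 4 tiles of this kind were chr10:7884501-7885000, chr10:28458501-28459000, chr12:8587001-8587500 and chr8:7224001-7224500. They had 7.59 to 12.5% in melanophores, 6.90 to 9.02% in iridophores, 92.6 to 96.9% in late NCCs and 94.5 to 99.7% in early NCCs. Melanophores and iridophores differed by 5.61 points or less in these 5 tiles, and of the 5 adjusted p-values of that difference 1 was under 0.05, at chr8:7224001-7224500 (0.00899, Fisher's exact test).

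The largest gains started from a low or partial late NCC level, as a gain of this size requires. At chr7:29050001-29050500 the level was 95.4% in melanophores, 89.2% in iridophores, 39.6% in late NCCs and 73.6% in early NCCs. Each of its 18 CpGs gained 30 points or more. At chr4:45414501-45415000, on 336 melanophore and 778 late NCC readings, the level was 92.3% in melanophores, 91.6% in iridophores, 28.6% in late NCCs and 27.3% in early NCCs. The other 3 tiles, at chr15:4024001-4024500, chr25:25220501-25221000 and chr1:48567501-48568000, had 75.1 to 85.3% in melanophores, 70.3 to 80.7% in iridophores, 20.5 to 27.7% in late NCCs and 18.6 to 65.7% in early NCCs. Late NCCs thus lay below early NCCs in some of these tiles and not in others. Early NCC and iridophore levels are over the CpGs with 5 or more reads there, so the sets can differ. The early NCC level rests on 8 of 12 CpGs at chr25:25220501-25221000 and on 9 of 12 at chr1:48567501-48568000. The iridophore level at chr4:45414501-45415000 rests on 13 of 18. Among gained runs, chr1:21735501-21737000 had 63.3% in melanophores, 54.3% in iridophores, 15.4% in late NCCs and 67.1% in early NCCs, so that late NCCs were the lowest of the 4 libraries there. The run at chr1:29237501-29239000 had 78.3% in melanophores, 76.5% in iridophores, 26.3% in late NCCs and 46.6% in early NCCs. Its early NCC level rests on 17 of the 25 CpGs behind the other levels. The 2-kb flanks of this run were at 20.3% in melanophores and 19.7% in late NCCs. The run at chr24:38111001-38112500 had 52.7% in melanophores, 46.8% in iridophores, 10.4% in late NCCs and 4.25% in early NCCs. Melanophores were thus above both NCC stages there and at chr1:29237501-29239000, but below early NCCs at chr1:21735501-21737000.

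Gained tiles as a class showed the same mixture. Over the 637 gained tiles with data in the 4 libraries, medians were 70.2% in melanophores, 68.2% in iridophores, 33.0% in late NCCs and 42.7% in early NCCs. Early NCCs were under 20% in 121 of them (19.0%), at 20 to 50% in 43.8% and at 80% or more in 4.24%. Since a gain of this size needs a low or partial late NCC level and a fall needs a higher one, the call itself sets part of the gap in early NCC level between gained and fallen tiles.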

How the data were processed

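The files deposited by the authors give, for every covered CpG, a methylated fraction (the level) and the raw read count behind it. To make them the authors used Cutadapt for trimming, Bismark with danRer10 for alignment and extraction, and Picard against duplicates, and then merged the replicates. Versions are not given in the sources used here. A lower bisulfite conversion would raise all levels of a library, and merging replicates hides their spread.

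Positions were read as counted from 0 and printed from 1. Level times reads gave the methylated reads. Two-sided Fisher's exact tests (numba 0.67.0, checked against scipy 1.17.1 and on simulated data), Benjamini-Hochberg adjustment over all tiles and Wilson 95% intervals were used with Python 3.11.15, numpy 2.4.6, pandas 2.3.3 and matplotlib 3.10.9. Intervals cover counting error only. They take readings as independent, which CpGs on a shared read are not, and so can be too narrow.

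Named regions were the 5 fallen and 3 gained runs with the most tiles (ties by mean change) and the 5 largest single-tile falls and gains among tiles with 10 or more CpGs and 200 or more reads in both libraries, at most 1 per run. The marker gene lists that had been drawn up were not analysed here. The tiles, classes and lists were chosen with earlier results of these data known. Alternatives changed the minimum reads and CpGs, the tile level, grid, size, coverage limit, call threshold, and the libraries and chromosomes used.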

Additional observations from a re-analysis of the deposited data

How the results depend on the processing

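No paired analysis was possible because the replicates are combined in the files, and for the same reason no replicate could be left out. The mean change (-3.15 points), gross loss (4.12), gross gain (0.977), tiles fallen (37564) and gained (945), the share of the loss in fallen tiles (25.8%) and the share of these with a fallen neighbour (25.2%) were recomputed, in this order, under each setting. With a minimum of 10 reads per CpG they were -3.33, 4.17, 0.836, 35738, 647, 28.2% and 24.5%. With 10 or more CpGs per tile they were -2.74, 3.54, 0.794, 15122, 438, 24.9% and 14.3%. With levels from summed reads they were -3.32, 4.29, 0.976, 42592, 1077, 28.7% and 27.8%. With the median CpG as the level they were -3.39, 4.47, 1.08, 46825, 2635, 33.4% and 25.3%. In tiles of 1000 bp they were -3.18, 3.99, 0.817, 20593, 444, 19.1% and 14.7%. Without CpGs above 3 times the median coverage they were -3.09, 4.10, 1.02, 35418, 953, 25.2% and 23.7%. With CpGs read 5 times in all 4 libraries they were -3.30, 4.17, 0.868, 35360, 680, 27.8% and 24.6%. Without chromosome 4 they were -3.14, 4.11, 0.971, 36005, 885, 25.9% and 25.3%. On a grid shifted by 250 bp 37489 tiles fell and 930 gained, and the other values moved by less than counting error. Fisher's exact test, on the same reads that made the calls, changed neither count of calls by over 1.5 times. The last 4 values were 67503, 3966, 37.1% and 30.7% at a threshold of 20 points and 10335, 60, 9.49% and 14.6% at 50 points. Fewer tiles were tested with 10 or more CpGs, in tiles of 1000 bp and with 200 or more reads. Chosen after seeing the data were tiles of 200 or more reads, CpGs that fell alone and a range of coverage. With tiles of 200 or more reads, the gross gain was 0.736 points and 399 tiles gained. Without CpGs that fell by 50 points or more between neighbours changed by under 10 points, 37487 tiles fell. The difference in percent fallen between tiles at 95% or more and at 60 to 80% was -0.85 points by late NCC level and reversed to 2.28 points by early NCC level. Between tiles of 5 to 6 and of 25 or more CpGs it was 2.51 points, 3.44 points in tiles at 80% or more in early NCCs and 3.55 points there with 20 to 40 reads per CpG. The named regions kept a change of 30 points or more in their direction in 50 of 50 recomputed values for falls and 40 of 40 for gains. They had been chosen as extremes and the recomputed values reuse their reads within fixed borders, so this outcome was close to given. The causes of these movements were not tested. Depth limits single tiles most: the counting standard error had a median of 3.05 points in fallen and 4.87 points in gained tiles, and it leaves out the spread between animals. Counts of gained tiles moved with the setting more than counts of fallen tiles under the median level (2635) and under 200 or more reads (399).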
